A study of Homo sapiens with 19 samples.

Results

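The genes described here are 5 genes at loci where common variants are associated with fatty liver disease: PNPLA3 (ENSG00000100344), HSD17B13 (ENSG00000170509), TM6SF2 (ENSG00000213996), MBOAT7 (ENSG00000125505) and GCKR (ENSG00000084734). They were chosen by name and matched by Ensembl identifier, and are 5 of the 32703 gene identifiers listed in every deposited matrix. The rule that chose them uses no measured value, though they were proposed with earlier results of these data known.

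Liver fat is set by the balance between fatty acid supply, triglyceride storage in droplets, droplet lipolysis and export in very low density lipoprotein (VLDL). The 5 genes act at different points of this balance. PNPLA3 is a lipid droplet enzyme that acts on triglyceride and retinyl esters. HSD17B13 is a lipid droplet protein of hepatocytes with retinol dehydrogenase activity. TM6SF2 is a membrane protein of the endoplasmic reticulum and Golgi that is needed to load VLDL with lipid, in liver and in small intestine. MBOAT7 transfers arachidonate onto lysophosphatidylinositol. GCKR is a regulatory protein of the hepatocyte that bears on glucose entry into lipogenesis.

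The samples were human liver organoids grown from the wild-type human pluripotent stem cell line W01, profiled by droplet single-cell RNA sequencing (10x Genomics, 3′ version 3 chemistry) in 19 libraries of 9 groups. Organoids on ultra-low attachment plates (ULA) were sampled untreated at day 21 (3 libraries) and day 34 (2 libraries). Organoids on an orbital shaker (OS) were sampled at day 25, in 2 libraries for each of 7 groups: 10 ng/ml TGFB1 and its control, 500 µM PA and its control, 500 µM OA and its control, and an untreated group. Per the labels, OS organoids grew for 20 days before 5 days of TGFB1 or PA, and no length is given for OA. PA and OA are the labels' abbreviations and are not spelled out there. The series asks how far such organoids can model fatty liver disease, with its inflammation and fibrosis. All groups share 1 cell line, and the labels do not say that libraries of a group came from separate cultures, so p-values measure the spread between libraries, which may be technical.

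After cells with fewer than 500 genes or more than 20% mitochondrial counts were left out, 120240 cells remained, 3089 to 12427 per library, with 6880807 to 91184130 unique molecular identifiers (UMIs, each a counted RNA molecule) per library. Median UMIs per cell ran from 1310 to 14304.5. No pair of libraries shared more than 32 barcodes. The labelled tissue was checked against 16 hepatocyte markers, whose summed level was 9420 to 25909 CPM (UMIs scaled to a common library total) in the PA, OA, OA control, PA control and untreated libraries, 3264 to 5507 in the TGFB1 experiment, 2586 to 3041 at ULA day 21 and 100.4 to 910.8 at ULA day 34. ALB itself was at most 5.32 CPM at ULA day 21 and at most 0.31 CPM at day 34. It was at 3.35 and 3.14 CPM in the TGFB1 control and 0.136 and 0.102 CPM (6 and 4 UMIs) with TGFB1.

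In GRCh38 (GENCODE v44 annotation), each member is a protein-coding gene. PNPLA3 lies at chr22:43923792-43964488 on the plus strand, with 9 exons and 2753 exonic bases in its canonical transcript. HSD17B13 lies at chr4:87303789-87322886 on the minus strand, with 7 exons and 2368 exonic bases. TM6SF2 lies at chr19:19264364-19273391 on the minus strand, with 10 exons and 1518 exonic bases. MBOAT7 lies at chr19:54173412-54189882 on the minus strand, with 8 exons and 2294 exonic bases. GCKR lies at chr2:27496839-27523684 on the plus strand, with 19 exons and 2189 exonic bases. The ULA matrices list more genes than the OS matrices. Among them is a non-coding RNA on the same strand that shares 1021 exonic bases with TM6SF2, none of them in its last exon of 508 bases, and it held 26 UMIs over the 5 ULA libraries. For this reason ULA and OS levels are given side by side and not tested against each other. In OS matrices SAMM50 shares 148 exonic bases with PNPLA3, none in the last exon of 1429 bases, where most reads of a 3′ assay fall.

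The 250 bases before the RefSeq start of the 3 genes that were called higher with OA are shown, because these are the members with a call in that comparison. They are written 5′ to 3′ in the direction of transcription, from RefSeq's GRCh38.p14 table, which held an entry for 4 of the 5 members (all but PNPLA3). Capitals mark every match, on either strand, to 6 motifs: the TATA box TATAAA, the GC box GGGCGG, the CCAAT box, the E-box CACGTG, the hexamer GTTAAT and the HNF4-type motif CAAAGT. None of the matches overlap. Distances are from the RefSeq start. For GCKR it is the GENCODE gene start given above, but for TM6SF2 and MBOAT7 it lies inside the GENCODE gene, so part of the TM6SF2 window and all of the MBOAT7 window fall within the gene coordinates given above.
TM6SF2, chr19:19273302-19273551, minus strand: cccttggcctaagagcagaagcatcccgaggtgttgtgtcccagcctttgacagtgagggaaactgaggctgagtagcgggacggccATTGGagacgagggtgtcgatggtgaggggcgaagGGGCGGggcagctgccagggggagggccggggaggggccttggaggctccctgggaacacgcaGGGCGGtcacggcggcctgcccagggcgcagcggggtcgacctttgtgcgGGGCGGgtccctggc
GCKR, chr2:27496589-27496838, plus strand: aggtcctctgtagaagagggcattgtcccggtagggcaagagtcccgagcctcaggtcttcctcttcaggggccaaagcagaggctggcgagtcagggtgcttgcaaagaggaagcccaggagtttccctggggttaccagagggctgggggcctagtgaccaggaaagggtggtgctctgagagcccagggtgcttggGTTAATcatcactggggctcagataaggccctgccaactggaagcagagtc
MBOAT7, chr19:54189581-54189830, minus strand: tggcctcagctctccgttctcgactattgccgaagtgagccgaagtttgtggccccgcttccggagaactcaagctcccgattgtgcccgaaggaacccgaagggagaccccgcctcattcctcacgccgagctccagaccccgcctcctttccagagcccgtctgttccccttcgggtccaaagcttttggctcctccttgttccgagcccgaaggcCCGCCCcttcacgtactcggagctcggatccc
The TM6SF2 window held 3 GC boxes, the nearest ending 10 bases before the start, and a CCAAT box on the opposite strand, which reads ATTGG here. MBOAT7 had 1 GC box on the opposite strand (CCGCCC), and the GCKR window had none but held GTTAAT at 51 to 46 bases before the start. No motif of this set was in all 3 windows. Over 35116 promoter windows of the same length, 42.6% held a GC box, 32.0% CCAAT, 10.7% TATAAA, 6.34% CACGTG, 6.23% GTTAAT and 10.3% CAAAGT. A match describes these letters and is not a bound site.

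Among the lipid droplet genes, PNPLA3 was detected in every library. Its level was 12.1, 8.80 and 12.8 CPM at ULA day 21 and 8.49 and 8.59 CPM at day 34. On the shaker it was 7.61 and 18.2 CPM untreated, 11.6 and 10.7 CPM in the OA control, and 6.05 and 5.68 CPM with OA. In the other OS experiments it was at 4.65 and 5.87 CPM in the PA control, 5.92 and 5.25 CPM with PA, 3.6 and 3.2 CPM in the TGFB1 control, and 3.45 and 4.11 CPM with TGFB1. In order of group means, untreated OS stood first (12.9 CPM ± 7.5, SD, n = 2) and the TGFB1 control last (3.41 CPM ± 0.277, SD, n = 2). Neighbours in that order overlapped except OA control over ULA day 34, ULA day 34 over OA, and PA control over TGFB1. How often groups separate in this way over all genes was not counted, so separations here and below only describe the values.

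HSD17B13, the other droplet gene, was at the edge of detection. It had 2 to 23 UMIs per library and 0.071 to 0.38 CPM. Group means ran from 0.147 CPM ± 0.0200 (SD, n = 2) in the OA control to 0.373 CPM ± 0.0136 (SD, n = 2) with TGFB1. Only TGFB1 over ULA day 21 (0.24 to 0.28 CPM) separated as neighbours in the order of means. In the first OA library, 7 of its 12 UMIs came from 1 cell.

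TM6SF2, the VLDL lipidation gene, spanned a wider range. With OA it was at 30.6 and 25.1 CPM (1657 and 1310 UMIs), a mean of 27.9 CPM ± 3.94 (SD, n = 2). It was at 3.36 and 5.97 CPM in untreated OS organoids and at 5.52 and 3.49 CPM in the OA control. PA gave 2.60 and 2.97 CPM, its control 2.47 and 2.34 CPM, and ULA day 21 gave 3.00, 2.64 and 2.00 CPM. The lowest levels were at ULA day 34 (0.81 and 0.31 CPM), in the TGFB1 control (0.38 and 0.82 CPM) and with TGFB1 (0.41 and 0.51 CPM). Neighbours that separated were OA over untreated, OA control over PA, and PA control over TGFB1 control.

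MBOAT7, the phospholipid gene, was the steadiest of the 5 across libraries, at 37.9 to 86.9 CPM in all 19. Levels were 53.9, 39.9 and 46.5 CPM at ULA day 21 and 52.3 and 63.5 CPM at day 34. In the TGFB1 control it was at 71.7 and 50.2 CPM and with TGFB1 at 37.9 and 43.1 CPM. In the PA control it was at 65.3 and 74.8 CPM and with PA at 86.9 and 61.7 CPM. It was at 46.6 and 50.5 CPM in untreated OS organoids, 47.1 and 50.6 CPM in the OA control and 58.8 and 59.3 CPM with OA. In order of group means, only ULA day 34 over OA control separated as neighbours.

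GCKR, the regulator of hepatocyte glucose use, had few UMIs outside the OA and PA experiments. With OA it was at 2.55 and 2.26 CPM (138 and 118 UMIs). With PA it was at 1.68 and 1.27 CPM (40 and 74 UMIs), and in the PA control at 0.727 and 1.19 CPM (5 and 54 UMIs). The TGFB1 control gave 0.569 and 0.555 CPM and TGFB1 0.295 and 0.153 CPM. The OA control (0.340 and 0.247 CPM), untreated OS organoids (0.106 and 0.270 CPM), ULA day 21 (0.132 to 0.147 CPM) and ULA day 34 (0.141 and 0.285 CPM) were low. OA, PA, PA control, TGFB1 control and OA control separated each from the next in that order of means.

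**Figure D1:**
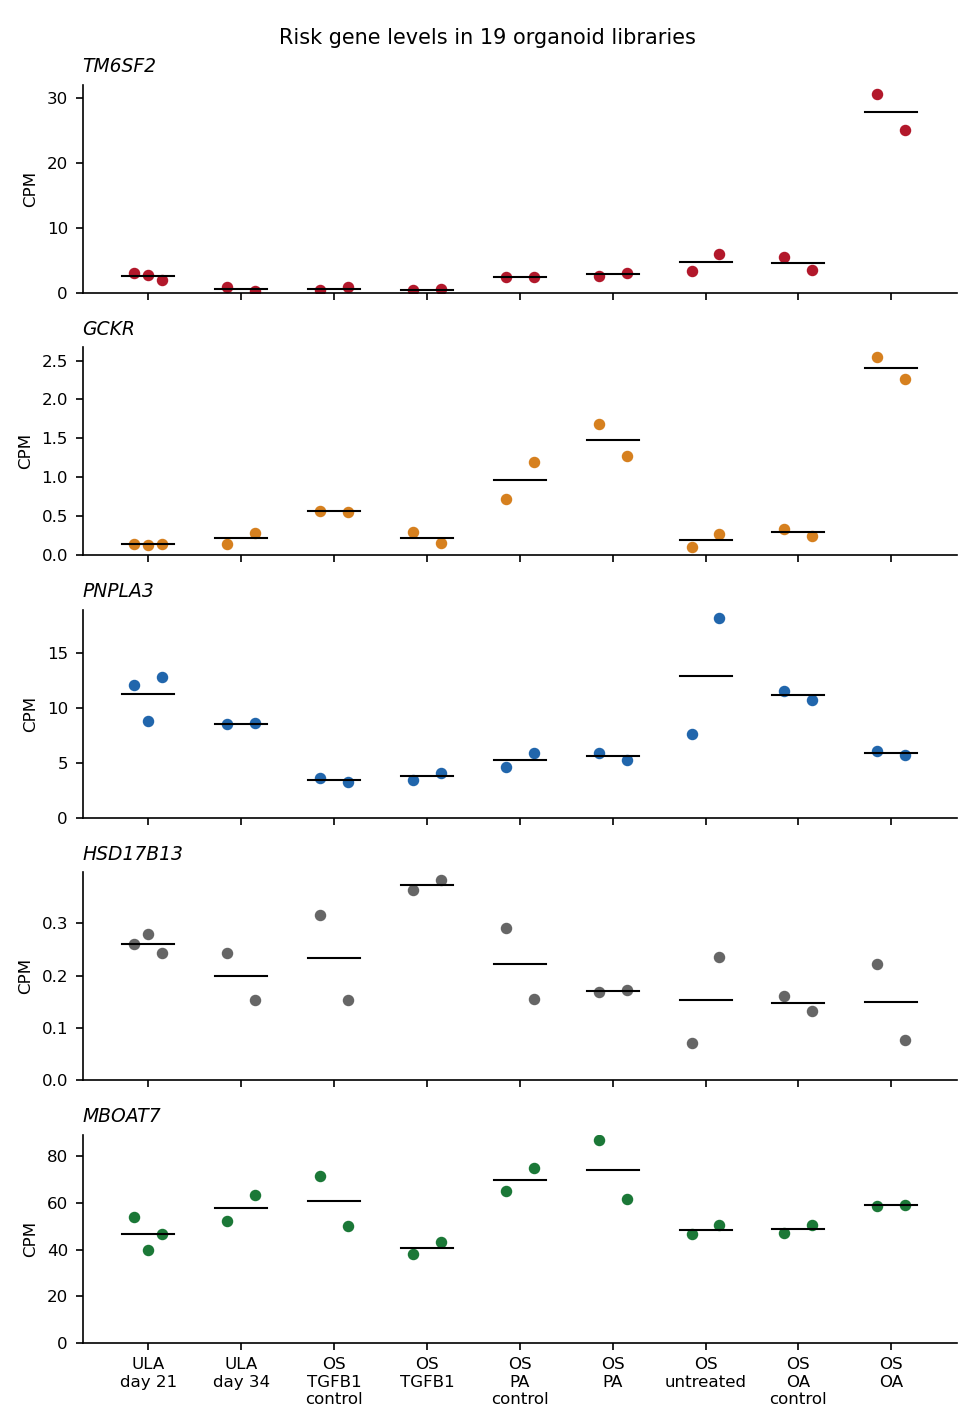
Level of each gene (CPM of summed UMIs, linear axes from 0) in each of the 19 libraries by group, with a horizontal line at the group mean. The OA libraries stand apart for TM6SF2 (25.1 and 30.6 CPM) and lead for GCKR (2.26 and 2.55 CPM), PNPLA3 is spread most in the untreated group (7.61 and 18.2 CPM), and HSD17B13 stays under 0.4 CPM.

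With OA, 3 of the 5 genes were called higher and none lower: TM6SF2, GCKR and MBOAT7. Over all 19366 genes tested, 43.3% were called, 21.7% higher and 21.6% lower. Changes are log2 fold changes from edgeR's quasi-likelihood test on UMIs summed per library, with trimmed mean of M values (TMM) scaling and Benjamini-Hochberg adjustment over all genes tested, and a gene is called at an adjusted p under 0.05. In summed libraries, fewer cells of a type and less RNA per cell cannot be told apart.

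TM6SF2 rose by 2.95 (SE 0.372, adjusted p = 5.1e-05), from 5.52 and 3.49 CPM in the control to 30.6 and 25.1 CPM. Both OA libraries were above every other library of the series. GCKR rose by 3.35 (SE 0.444, adjusted p = 7.3e-05), from 19 and 13 UMIs to 138 and 118 UMIs, and the groups did not overlap. Both were called with any 1 of the 4 libraries left out, with changes of 2.59 to 3.41 for TM6SF2 and 3.07 to 3.69 for GCKR.

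MBOAT7 rose by 0.61 (SE 0.199, adjusted p = 0.024), from 47.1 and 50.6 CPM to 58.8 and 59.3 CPM. That call was lost when any 1 of the 4 libraries was left out (0.58 to 0.64, adjusted p = 0.086 to 0.13), and under the stricter cell filter of 1000 genes and 10% mitochondrial counts (0.54, adjusted p = 0.051). PNPLA3 was at 11.6 and 10.7 CPM in the control and 6.05 and 5.68 CPM with OA, so the groups did not overlap, but its change of -0.59 (SE 0.337) did not pass the test (adjusted p = 0.17). It passed when only these 4 libraries entered the fit (-0.64, adjusted p = 0.013). HSD17B13 had 16 UMIs in each group over both libraries, and its change of 0.36 (SE 0.673, adjusted p = 0.70) was not detectable at this depth.

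Scaling bore on the smaller of these changes. TMM factors were 0.740 and 0.758 in the OA libraries and 0.895 and 1.00 in their controls. When libraries were scaled by their totals alone, an alternative added after seeing the data, the median change of all genes went from -0.08 to -0.42. The calls went from 4197 higher and 4181 lower to 2628 higher and 5952 lower. MBOAT7 then changed by 0.27 (adjusted p = 0.34) and was no longer called, while PNPLA3 changed by -0.93 (adjusted p = 0.032) and was called lower. TM6SF2 (2.62) and GCKR (3.02) were called higher under both scalings.

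Markers of other cells moved with OA. The 12 gut epithelial markers summed to 19081 and 23047 CPM with OA against 1730 and 3222 CPM in the control, and 10 of the 12 were called higher and none lower. The 10 mesenchymal markers summed to 128 to 171 CPM with OA against 2873 to 4814 CPM, and all 10 were called lower. The 16 hepatocyte markers summed to 24945 to 25909 CPM against 9420 to 13050 CPM, 10 of 15 tested were called higher, and 1 was at 0 in an OA library. ALB rose by 5.38 (SE 0.569) and APOB by 4.25 (SE 0.469). A marker sum is not a count of cells. Cluster 9, described below as hepatocyte-like, held 4.27% and 0.279% of cells with OA against 0.733% and 1.03% in the control. The 6 cycling markers summed to 106 to 115 CPM against 317 to 339 CPM, all 6 called lower, and the 5 neural markers to 82.9 to 97.3 CPM against 192 to 269 CPM, 3 called lower. Of 5 macrophage markers 2 could be tested and CD68 alone was called, higher. The list summed to 71.0 to 82.7 CPM against 10.7 to 15.8 CPM, with up to 3 of its markers at 0 in a library. Of 4 pluripotent markers tested 2 were called lower, at a sum of 0.249 to 0.259 CPM against 2.15 to 5.07 CPM. The part of these cells in the changes of the 5 genes was not tested. Outside the mesenchymal-like clusters MBOAT7 changed by 0.48 (adjusted p = 0.069), which was not called, and TM6SF2 (2.64) and GCKR (2.98) were called.

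**Figure D2:**
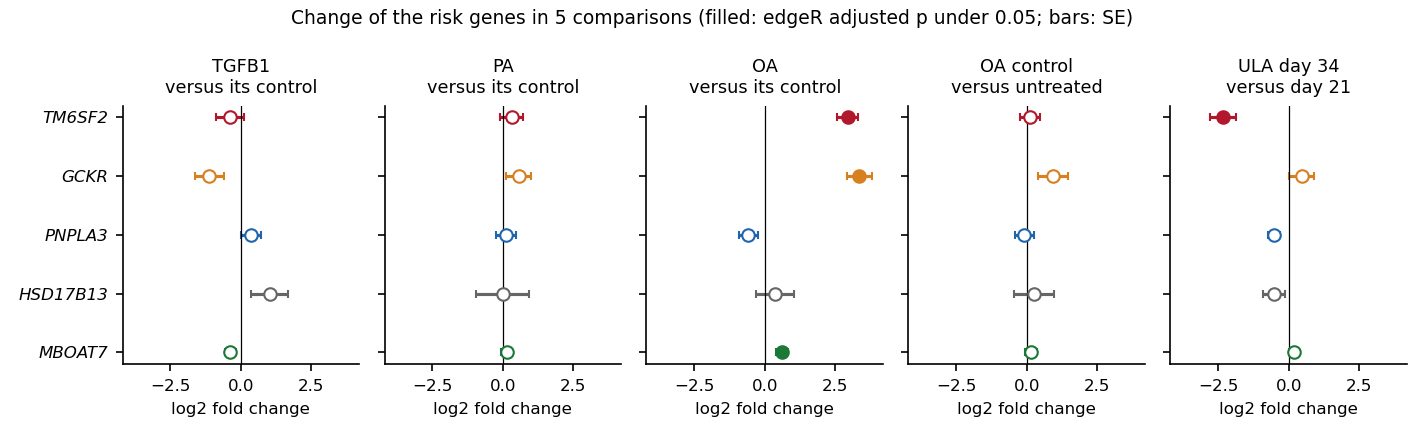
Log2 fold change of each gene with its standard error (bars) in 5 comparisons, filled where edgeR's adjusted p was under 0.05. TM6SF2 (2.95), GCKR (3.35) and MBOAT7 (0.61) are filled for OA and TM6SF2 (-2.32) for ULA day 34, and no point is filled for TGFB1, PA or the OA control.

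To see which cells held these transcripts, the cells of each experiment were clustered without the 5 genes and without the pathway lists. Shares of cells with a UMI are given as measured and after each cell was thinned to 1000 UMIs, and intervals are exact 95% Poisson intervals that cover counting error only. The OA, OA control and untreated libraries, 6 in all, were clustered together and are called the OA experiment here. The labels do not assign the untreated libraries to it. Among clusters of at least 100 cells, TM6SF2 had its highest pooled level in cluster 12. This cluster was gut epithelial-like, led by FABP2, APOA4 and KRT20, and had 3069 cells with a median of 12405 UMIs. TM6SF2 reached 38.2 CPM there (36.8 to 39.6), with a UMI in 38% of cells and in 3.40% of the 2954 cells deep enough to be thinned. The cluster held 10.2% of the experiment's cells and 71.4% of its TM6SF2 UMIs.

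The hepatocyte-like cluster 9 (1156 cells, led by GSTA1, TTR and FGG, median 6362 UMIs) had 21.6 CPM of TM6SF2 (19.2 to 24.2). These pooled levels mix libraries in unequal shares, since most cells of cluster 12 were from OA libraries and most of cluster 9 from untreated ones, so they give no order between the 2 clusters. Within the second OA, first control and second untreated libraries cluster 9 had the higher value, on 11 to 44 UMIs in that cluster. Cluster 11, unnamed and led by MMP1, TRABD2A, LCN15 and PRSS1, had 7.01 CPM, and unnamed cluster 2, led by OLFM4 and CLDN18, had 5.77 CPM. The mesenchymal-like cluster 4 (6381 cells, median 4127 UMIs) had 0.87 CPM, with a UMI in 0.533% of cells and in 0.0831% of 6153 cells after thinning. A cluster of 60 cells, 59 of them from the second OA library, had 60.1 CPM (39.3 to 88.1, 26 UMIs). By the count of markers alone (4 hepatocyte markers) it would be hepatocyte-like, but it was led by CEACAM7 and LCT, with no hepatocyte marker among its top 10 genes. It is left unnamed and is not counted among the hepatocyte-like cells given here.

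TM6SF2 was next read library by library within clusters. In gut epithelial-like cluster 12 it was at 39.5 CPM (1476 UMIs, 1653 cells) and 37.0 CPM (1211 UMIs, 1325 cells) with OA. In the control it was at 34.5 CPM (19 UMIs, 30 cells) and 27.1 CPM (10 UMIs, 15 cells), and untreated at 31.7 and 14.5 CPM (12 and 2 UMIs). The counting intervals of OA and control libraries overlapped in this cluster. It held 53.5% and 41.1% of OA cells but 0.550% and 0.485% of control cells, and was drawn from the expression of these same cells. With so few control UMIs the overlap cannot decide whether TM6SF2 changed within such cells. In hepatocyte-like cluster 9 TM6SF2 was at 28.3 and 42.3 CPM with OA (132 and 9 cells), 41.5 and 25.7 CPM in the control (40 and 32 cells) and 13.7 and 15.6 CPM untreated (510 and 433 cells). In cluster 11 the order was turned, with 1.55 and 0.814 CPM with OA (2 UMIs and 1 UMI) against 8.0 and 9.5 CPM in the control.

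The clusters that gave the TM6SF2 UMIs were not the same in OA and control libraries. Cluster 12 gave 89.1% and 92.4% of them with OA and 6.17% and 5.43% in the control. Cluster 11 gave 68.2% and 62.0% in the control and 0.121% and 0.0763% with OA. Over all cells, 25.2% and 16.7% had a TM6SF2 UMI with OA and 3.92% and 3.75% in the control. After thinning, which left out 119 and 104 OA cells and 247 and 102 control cells, these were 2.16% and 1.56% against 0.352% and 0.199%.

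GCKR UMIs came mostly from clusters 12 and 2 with OA. Its level was highest, among clusters of at least 100 cells, in the OLFM4 and CLDN18 cluster 2 at 4.43 CPM (3.6 to 5.4, 99 UMIs), and 2.06 CPM (1.74 to 2.42, 147 UMIs) in gut epithelial-like cluster 12. The hepatocyte-like cluster 9 had 0.369 CPM (5 UMIs). The mesenchymal-like cluster 4 had 0 UMIs, which allows up to 0.0767 CPM. In cluster 2 the OA libraries had 6.28 and 3.73 CPM (47 and 52 UMIs) and the control libraries, with 12 and 38 cells there, had 0 UMIs, which allows up to 34.5 and 4.99 CPM. In cluster 12 the OA libraries had 2.33 and 1.80 CPM (87 and 59 UMIs). The first control library, with 30 cells there, had 1 UMI, or 1.82 CPM (0.046 to 10.1). The second, with 15 cells, had 0 UMIs, which allows up to 8.12 CPM. The control values thus do not separate from those with OA in this cluster. Cluster 12 gave 87 of 138 and 59 of 118 GCKR UMIs with OA, and cluster 2 gave 47 and 52 of them.

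Among clusters of at least 100 cells PNPLA3 was spread widely, from 1.68 CPM in cluster 8 (led by KRT6A and KRT5) to 23.1 CPM (18.0 to 29.0) in cluster 17 (229 cells, led by LRRC75A and REG4). Of these cells 228, with all 72 PNPLA3 UMIs, were from the second untreated library, where PNPLA3 was also highest over all cells. Cycling-like cluster 3 was at 25.5 CPM (14.9 to 40.8, 17 UMIs) in that library, so the pooled levels give no order within it. A cluster of 92 cells, all from that library, was at 33.0 CPM (23.7 to 44.8, 41 UMIs). It was at 15.7 CPM in cluster 11, 11.3 CPM in hepatocyte-like cluster 9, 6.27 CPM in cluster 12 and 6.52 CPM in mesenchymal-like cluster 4. In cluster 11 it was at 2.32 and 3.26 CPM with OA (3 and 4 UMIs) against 14.5 and 14.1 CPM in the control (381 and 169 UMIs). In cycling-like cluster 3 it was at 5.89 and 3.58 CPM with OA (7 and 6 UMIs) against 19.9 and 13.2 CPM. In cluster 12 it was at 6.08 and 6.30 CPM with OA against 5.45 and 18.9 CPM (3 and 7 UMIs) in the control. Hepatocyte-like cluster 9 had 8.59 and 3.85 CPM with OA (31 UMIs and 1 UMI) against 9.44 and 14.3 CPM in the control (10 and 15 UMIs). Both OA libraries were also below both controls in clusters 0, 1, 3, 4 and 11, with at most 7 UMIs in an OA library, while the groups overlapped in clusters 2, 8 and 12.

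MBOAT7 was present in every cluster, from 15.3 CPM in cluster 6 to 75.3 CPM in cluster 8. It was at 69.3 CPM in cluster 12, 59.8 CPM in hepatocyte-like cluster 9 and 38 CPM in mesenchymal-like cluster 4, where 18.6% of cells had a UMI. In cluster 12 it was at 65.4 and 73.9 CPM with OA against 67.2 and 56.8 CPM in the control. In cluster 11 it was at 36.4 and 42.3 CPM with OA against 46.1 and 52.6 CPM in the control. Both OA libraries were below both controls in clusters 1, 9 and 11, and above both in mesenchymal-like cluster 4, on 6 and 8 UMIs. HSD17B13 had 43 UMIs in the experiment, of which 13 were in cluster 12, 9 in cluster 11 and 0 in hepatocyte-like cluster 9. The comparison within hepatocyte-like cells was not tested, since the OA control held 40 and 32 of them against a minimum of 50.

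**Figure D3:**
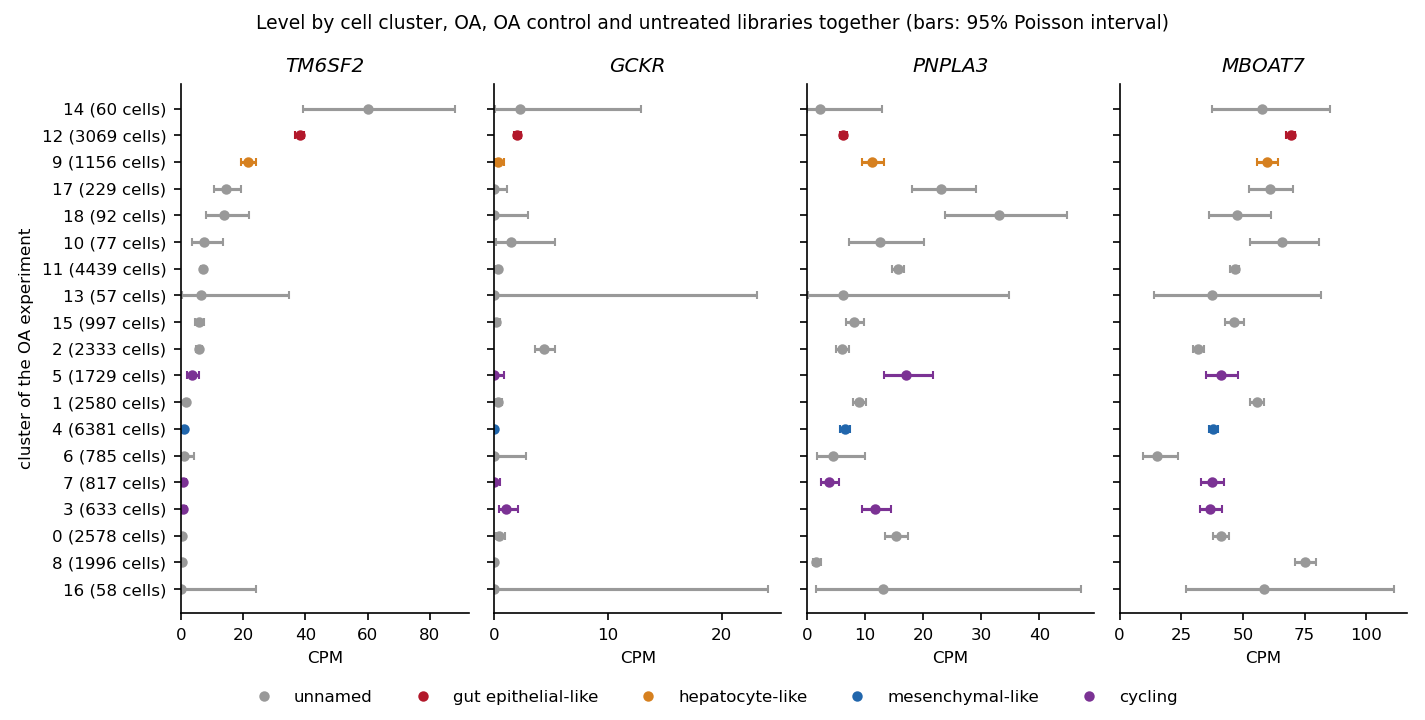
Level of 4 genes (CPM, linear axes) in each cluster of the OA experiment, with exact 95% Poisson intervals and the number of cells, in order of TM6SF2. TM6SF2 and GCKR have their highest pooled level in different clusters (38.2 CPM in cluster 12 and 4.43 CPM in cluster 2, among those of at least 100 cells), while PNPLA3 and MBOAT7 are spread over most.

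**Figure D4:**
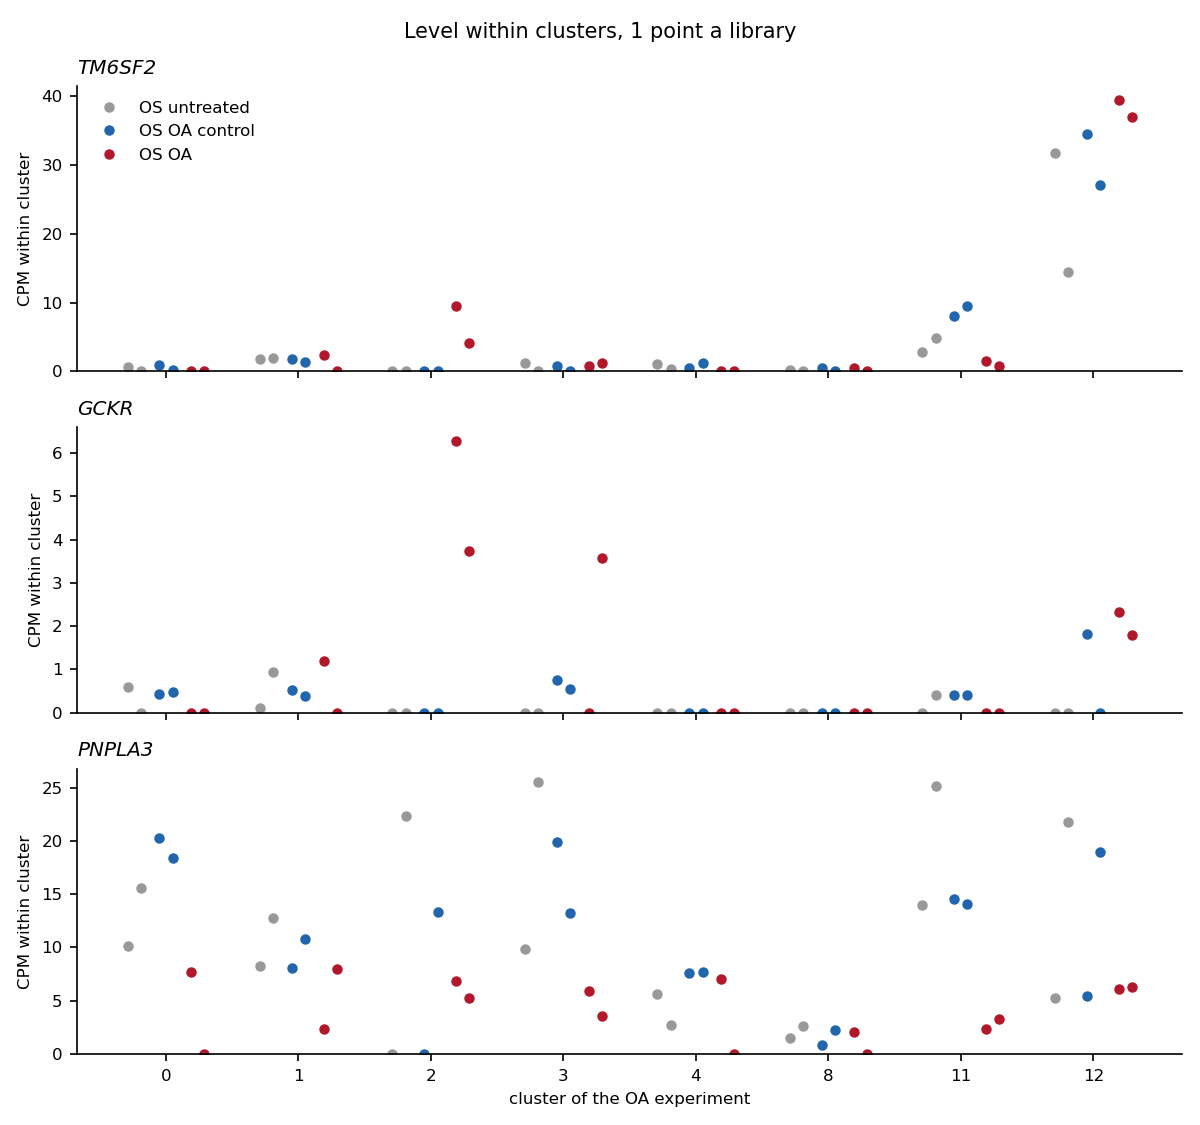
Level of TM6SF2, GCKR and PNPLA3 (CPM within the cluster) in each library, for the 8 clusters with at least 10 cells in every OA and OA control library. For TM6SF2 in cluster 12 the OA points (39.5 and 37.0 CPM) lie near the control points (34.5 and 27.1 CPM), and for PNPLA3 in cluster 11 they lie below them (2.32 and 3.26 against 14.5 and 14.1 CPM). The control points of TM6SF2 in cluster 12 rest on 19 and 10 UMIs in 30 and 15 cells.

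With PA, none of the 5 genes was called by edgeR, none had an unadjusted p under 0.05, and DESeq2 called none. Of all genes tested, 0.0465% were called. TM6SF2 changed by 0.31 (SE 0.406), GCKR by 0.57 (SE 0.440), MBOAT7 by 0.14 (SE 0.199), PNPLA3 by 0.12 (SE 0.359) and HSD17B13 by -0.01 (SE 0.942), each with an adjusted p of 1. PA and control libraries overlapped for PNPLA3 and MBOAT7. For TM6SF2 both PA libraries (2.60 and 2.97 CPM) were above both controls (2.47 and 2.34 CPM), and likewise for GCKR (1.68 and 1.27 against 0.727 and 1.19 CPM). The first PA control library was the shallowest, with 17 TM6SF2 and 5 GCKR UMIs. Gut epithelial markers summed to 1047 to 1403 CPM with PA and 995 to 1374 CPM in the control, and hepatocyte markers to 21698 to 24958 and 18568 to 24450 CPM.

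In the PA experiment TM6SF2 was highest in cluster 4, at 13.9 CPM (11.9 to 16.2), in 1563 cells that held 46.9% of its UMIs. The cluster was led by PHGR1, APOA4 and APOC3 and had 10 hepatocyte and 7 gut markers among its leading genes, so it was given no name. Its TM6SF2 level was 15.5 and 15.8 CPM with PA and 15.7 and 10.6 CPM in the control, which overlapped. The mesenchymal-like cluster had 0.675 CPM. GCKR was highest at 3.87 CPM (14 UMIs) in cluster 6, led by CHGA and NEUROD1, followed by cluster 4 at 2.40 CPM and cluster 3 at 1.79 CPM, and the mesenchymal-like cluster had 0 UMIs.

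With TGFB1, none of the 5 genes was called by edgeR or by DESeq2, against 22.2% of all genes tested by edgeR. The first TGFB1 control library had the lowest median UMIs per cell of the series, 1310 against 5635 in the second. GCKR alone had an unadjusted p under 0.05. It was at 0.569 and 0.555 CPM (9 and 29 UMIs) in the control and 0.295 and 0.153 CPM (13 and 6 UMIs) with TGFB1, a change of -1.12 (SE 0.507, adjusted p = 0.13). The groups did not overlap for GCKR, nor for MBOAT7 (71.7 and 50.2 against 37.9 and 43.1 CPM), which changed by -0.37 (SE 0.199, adjusted p = 0.20). TM6SF2 changed by -0.39 (SE 0.488, adjusted p = 0.60) and PNPLA3 by 0.35 (SE 0.357, adjusted p = 0.51), with overlapping libraries. HSD17B13 did not overlap either, at 0.36 and 0.38 CPM with TGFB1 and 0.32 and 0.15 CPM in the control. Its change was 1.02 (SE 0.660, adjusted p = 0.29), on 31 UMIs with TGFB1 (16 and 15) and 13 in the control (5 and 8). The share of all genes that separate in this way was not counted, so these separations only describe the values.

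Markers moved beside these values. Of 15 hepatocyte markers tested, 8 were called lower with TGFB1 and 1, SERPINA1, higher, and ALB fell by 4.53 (SE 0.766), APOB by 3.05 (SE 0.477) and AFP by 2.30 (SE 0.255). The sum of all 16 did not fall, at 5507 and 4685 CPM against 3264 and 4956 CPM in the control, and HNF4A changed by -0.05 (SE 0.541, adjusted p = 0.97). Gut epithelial markers summed to 170 to 179 CPM against 576 to 599 CPM, with 5 of 12 called lower and none higher. Cycling markers summed to 25.7 to 27.3 CPM against 262 to 371 CPM, and all 6 were called lower. Mesenchymal markers summed to 2402 to 2536 CPM against 694 to 783 CPM, with 4 of 10 called higher, and neural markers to 103 to 127 CPM against 61.8 to 71.7 CPM, with 1 of 5 called higher and 1 lower. The part of these cells in the values was not tested. TM6SF2 was highest in cluster 1 (led by FABP1 and TFF2) at 2.92 CPM on 26 UMIs, with 1.32 and 0.305 CPM in the mesenchymal-like clusters 5 and 6. GCKR had 57 UMIs in the whole experiment. No cluster of the TGFB1 or PA experiment was named hepatocyte-like, so no test within such cells was made there. The name also required that no other class had at least as many markers among the top 10 genes, where there were any, which PA cluster 4 did not meet (1 hepatocyte and 4 gut markers).

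The OA change was then tested against the PA and the TGFB1 change, each relative to its own control. The OA change exceeded the PA change by 2.64 for TM6SF2 (SE 0.540, adjusted p = 0.0046) and by 2.78 for GCKR (SE 0.618, adjusted p = 0.0073), and 20.5% of all genes were called in this comparison. MBOAT7 (0.47, adjusted p = 0.26), PNPLA3 (-0.72, adjusted p = 0.33) and HSD17B13 (0.36, adjusted p = 0.84) were not called. GCKR lost the call without the second PA control library (2.29, adjusted p = 0.13). The OA change exceeded the TGFB1 change by 3.34 for TM6SF2 (SE 0.606, adjusted p = 0.0011), by 4.47 for GCKR (SE 0.669, adjusted p = 2.6e-04) and by 0.99 for MBOAT7 (SE 0.281, adjusted p = 0.017), and 31.8% of genes were called. PNPLA3 (-0.94, adjusted p = 0.17) and HSD17B13 (-0.66, adjusted p = 0.64) were not called. TM6SF2 lost this call without the second TGFB1 control library (2.37, adjusted p = 0.068). MBOAT7 lost it without the first TGFB1 control, the first TGFB1, the second OA control or the first OA library (0.78 to 0.97, adjusted p = 0.055 to 0.081), and without TMM (0.86, adjusted p = 0.052). The agents differed in kind and experiment, and the matrices of the OA experiment carry another software version in their headers than those of the other 2, so agent and experiment cannot be told apart.

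The OA control was compared with the untreated OS organoids. Both carry the same software version in their headers, but the labels do not say that they belong to the same experiment. None of the 5 genes was called by edgeR, none had an unadjusted p under 0.05, DESeq2 called none, and 0.573% of all genes were called, 0.0826% higher and 0.491% lower. Changes were 0.11 for TM6SF2 (SE 0.358), -0.08 for PNPLA3 (SE 0.334), 0.15 for MBOAT7 (SE 0.198), 0.24 for HSD17B13 (SE 0.709) and 0.92 for GCKR (SE 0.536), with 19 and 13 GCKR UMIs against 6 and 8. AFP, a fetal hepatocyte protein, was lower by 2.11 in the OA control (SE 0.253, adjusted p = 0.011). Of the gut epithelial markers, edgeR called MUC13 lower by 1.45 (adjusted p = 0.041) and OLFM4 higher by 1.63 (adjusted p = 0.047), and no other.

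From day 21 to day 34 on ULA plates TM6SF2 fell and the other 4 genes were not called. TM6SF2 was at 3.00, 2.64 and 2.00 CPM (265, 180 and 164 UMIs) at day 21 and at 0.81 and 0.31 CPM (63 and 28 UMIs) at day 34, with no overlap. It fell by 2.32 (SE 0.461, adjusted p = 0.018), where 15.6% of the 22261 genes tested were called, 8.43% higher and 7.19% lower. The call was lost without any 1 of the day 21 libraries (highest adjusted p = 0.086). PNPLA3 changed by -0.53 (SE 0.215, adjusted p = 0.14), HSD17B13 by -0.53 (SE 0.389, adjusted p = 0.39), MBOAT7 by 0.18 (SE 0.181, adjusted p = 0.53) and GCKR by 0.47 (SE 0.445, adjusted p = 0.51). The PNPLA3 libraries did not overlap (8.80 to 12.8 against 8.49 and 8.59 CPM).

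The hepatocyte markers summed to 100.4 to 910.8 CPM at day 34 against 2586 to 3041 CPM at day 21, and ALB fell by 4.85 (SE 0.689), APOB by 3.95 (SE 0.964) and HNF4A by 3.56 (SE 0.774). The gut epithelial markers summed to 5.51 and 85.7 CPM against 319 to 518 CPM, with 8 of 12 called lower and none higher. The 5 basal squamous markers summed to 322 and 920 CPM against 11.7 to 19.3 CPM, and all 5 were called higher, as were 5 of 6 suprabasal squamous markers (454 and 1491 CPM against 264 to 365 CPM). Cycling markers summed to 432 and 621 CPM against 1000.4 to 1082 CPM, with 4 of 6 called lower, and pluripotent markers to 4.56 to 5.06 CPM against at most 55.0 CPM at day 21, without overlap, with all 4 tested called lower. Mesenchymal markers summed to 2590 and 4238 CPM against 1996 to 2465 CPM, with 3 of 10 called higher, ductal markers to 2456 to 3627 CPM against 1295 to 1797 CPM, with 1 of 8 called higher and 1 lower, and neural markers to 22.8 to 74.9 CPM against 8.48 to 9.86 CPM, with 2 of 5 called higher. Day 34 organoids were also given a longer dissociation than day 21 organoids, per the labels. The part of these in the TM6SF2 change was not tested. In the hepatocyte-like ULA cluster 3 (4017 cells, median 17621 UMIs), TM6SF2 was at 4.74 CPM (4.29 to 5.22) and gave 59.0% of its UMIs. By library it was at 5.72, 5.80 and 4.08 CPM at day 21, and at 1.09 CPM (1 UMI, 43 cells) and 0.637 CPM (4 UMIs, 730 cells) at day 34. In that cluster 7.49% of cells had a TM6SF2 UMI (0.382% after thinning), against 1.86% (0.218% after thinning) in mesenchymal-like cluster 0, where the level was 2.17 CPM at a median of 7961 UMIs. A cluster of 759 shallow cells had a higher level, 9.83 CPM, on 19 UMIs. GCKR had its highest ULA level, 2.79 CPM, in cluster 9 (258 cells, led by POU5F1 and NANOS3) on 10 UMIs.

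Genes of the pathways around the 5 members were read from lists. With OA the VLDL assembly list moved furthest: 11 of 12 genes were called higher and none lower, with a median change of 3.46 against -0.08 over all genes. The list counts with OA that follow stand beside 21.7% of all genes called higher and 21.6% lower. APOA4, an apolipoprotein of intestinal lipoproteins, went from 19.8 to 52.6 CPM in the control to 4177 to 4203 CPM with OA (7.15, SE 1.24, adjusted p = 5.1e-04). APOC3, an inhibitor of lipoprotein lipase, rose by 6.27 (SE 1.12), and APOC2, its activator, by 5.39 (SE 0.465). MTTP, which loads lipid onto APOB, went from 34.7 to 44.2 CPM to 384 to 519 CPM, a rise of 3.84 (SE 0.469).

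Of the droplet and triglyceride list, 13 of 22 tested were called higher and 2 lower with OA, with a median of 1.42. DGAT2, which makes triglyceride, went from 9.07 to 18.6 CPM to 151 to 194 CPM (3.95, SE 0.473). The droplet proteins CIDEC (3.87, SE 0.359) and CIDEB (3.79, SE 0.347) rose as well. HILPDA, an inhibitor of droplet lipolysis, fell by 1.73 (SE 0.362), and BSCL2, the seipin of droplet formation, fell by 0.49 with an adjusted p of 0.04995.

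Of the 10 genes of the carbohydrate response list given here, 7 were called higher, with a median of 2.07. HK2, a hexokinase, rose by 2.95 (SE 0.413). Some of these rested on few UMIs: G6PC had 0 in the control and 75 with OA, and PKLR 5 and 33. Of the phospholipid list, 3 of 11 were called higher, near the share over all genes, and none lower (median 0.55), namely LPGAT1 (2.98, SE 0.267), ACSL4 (2.38, SE 0.164), which activates arachidonate, and LPCAT3 (0.70, SE 0.206). Of the lipogenesis list, 3 of 11 were higher and 2 lower (median 0.44), also near those shares. ME1, a source of NADPH, rose by 2.77 and the elongase ELOVL6 by 1.94, while the desaturases FADS1 and FADS2 fell by 1.05 and 0.91.

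Other genes at fatty liver risk loci were called higher with OA in 6 of 14 cases and lower in none (median 0.56). These included MTTP and CIDEB, which other lists hold too, and INHBE, with 16 UMIs in the control and 163 with OA. Of the genomic neighbours of the 5 members, 4 of 16 tested were higher and 1 lower, with a median of -0.02, a lower share called than the 43.3% over all genes. HSD17B11, beside HSD17B13 and a droplet protein itself, rose by 2.16 (SE 0.258), from 87.3 to 120 CPM to 359 to 382 CPM. TMC4, beside MBOAT7, rose by 0.99, NUDT9, near HSD17B13, by 0.98, and PARVB, near PNPLA3, fell by 2.25 (SE 0.295). SUGP1, near TM6SF2, was not called (-0.21, adjusted p = 0.46). In the protein families of the members 8 of 21 tested were higher and 1 lower (median 0.59), with PNPLA8 at 1.83 and HSD17B10 at -1.04. Of 14 liver transcription factors, 7 were higher and 1 lower (median 1.13): NR1H4, the bile acid receptor, rose by 2.91, NR5A2 by 1.84 and PPARA by 1.44, and FOXA2 fell by 1.08. The gut epithelial and the hepatocyte marker sums given above rose in the same comparison as all of these counts. APOA4 belongs both to the gut epithelial markers and to the VLDL list. APOB, APOC3, APOA1 and APOA2 belong both to the hepatocyte markers and to the VLDL list.

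With PA, edgeR called no gene of any of these 9 lists, and list medians ran from -0.03 to 0.26 against 0.02 over all genes. With TGFB1, 10.9% of all genes were called higher and 11.3% lower, the all-gene median was -0.05 and the list medians stayed between -0.80 and 0.32. Of the VLDL list 3 of 12 were called lower and none higher: SMLR1 fell by 3.17, APOB by 3.05 and MTTP by 1.68. Of the carbohydrate response list 3 of 10 were called lower and none higher, with SLC2A2, the hepatocyte glucose transporter, at -3.34 and MLXIPL, the carbohydrate response factor, at -2.43. Of the droplet list 3 of 22 were higher and 2 lower, near the shares over all genes, with G0S2, an inhibitor of lipolysis, at 1.90 and PLIN5 at -3.28. LPCAT2 rose by 2.69 and PLA2G6 fell by 1.49 in the phospholipid list. Of the liver transcription factors 5 of 14 were lower and none higher, with ONECUT1 at -3.69 and FOXA2 at -3.35.

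From ULA day 21 to day 34, 4 of 11 tested VLDL genes were called lower and none higher, with a median of -2.15 against 0.01 over all genes, of which 8.43% were called higher and 7.19% lower. MTTP fell by 5.67 and APOB by 3.95. Of the droplet list 6 of 21 were lower and 1 higher, with CIDEB at -3.55 and G0S2 at 3.24. Of the transcription factors 7 of 14 were lower and none higher, with FOXA1 at -3.80 and HNF4A at -3.56. The carbohydrate response list went both ways, with 3 of 8 higher (HK1 at 1.60) and 2 lower (SLC2A2 at -3.75, HKDC1 at -2.90). In the phospholipid list, 2 of 11 were higher and none lower.

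**Figure D5:**
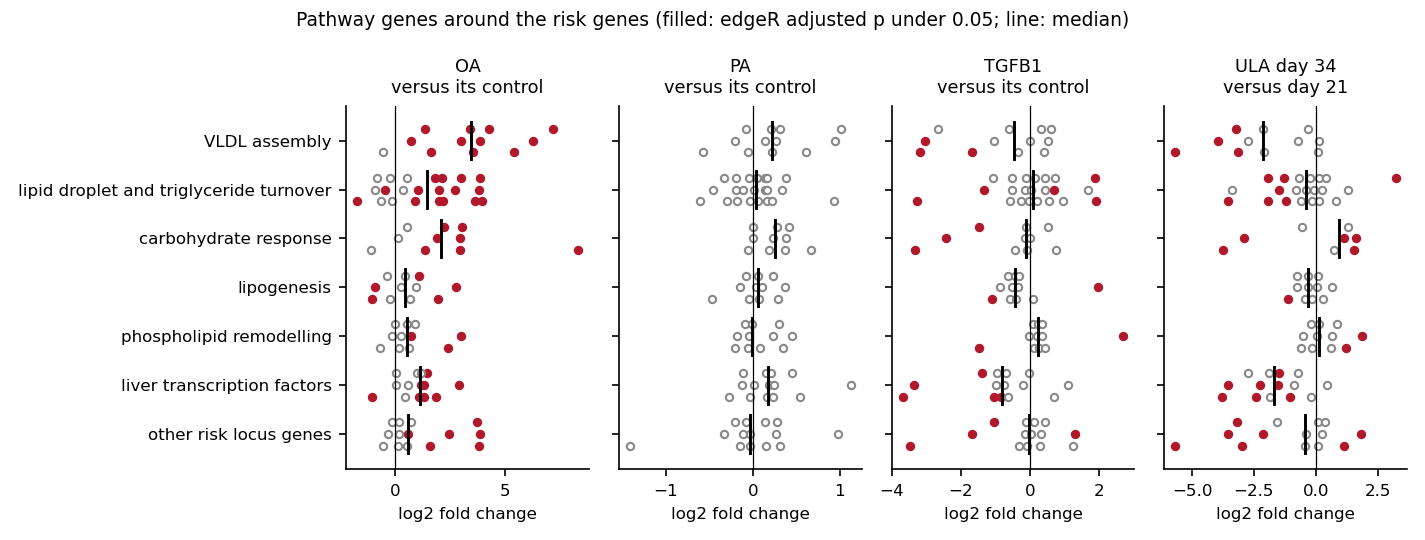
Log2 fold change of the reported genes of 7 pathway lists in 4 comparisons, filled where edgeR's adjusted p was under 0.05, with a vertical bar at the list median; the x axes differ between panels. With OA the VLDL list has its median at 3.46 and 11 of 12 points filled on the right, and with PA no point is filled.

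The genes most like each of the 5 members across the 19 libraries differed. Likeness was Pearson's r of log2(CPM + 1) over 11104 genes with a mean of at least 5 CPM. It is a description, since the libraries share a cell line, experiments and depth. Most like TM6SF2 were MOGAT3 (r = 0.971), SLC39A4 (0.970), CIDEC (0.965), KRT20 (0.965) and GPD1 (0.958), and MOGAT3 stayed at 0.950 over the 17 libraries without OA. Among the genes most like GCKR were SLC6A14 (0.923), GUCA2A (0.922), VNN2 (0.915) and CA4 (0.904). Most like MBOAT7 were FAM83H (0.898), YME1L1, POR, SVIP and GBA2. PNPLA3 was nearest to MRPL37 (0.833), GABRP, LRCH1, AP002387.2 and HSPD1. HSD17B13 was nearest to FAM84B (0.763), SLC7A5, BLCAP, SESN2 and CYB5R3. It had only 2 to 23 UMIs per library, so counting error weighs on these values. How high the best r of 11104 genes would be by chance was not tested. Among the members themselves r was 0.631 for GCKR with MBOAT7, 0.628 for GCKR with TM6SF2 and between -0.442 and 0.275 for the other 8 pairs.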

How the data were processed

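The deposited files are matrices of UMI counts per gene and cell barcode for 19 libraries. Per the submitters' processing notes, the authors used bcl2fastq, Cell Ranger 3.0.2 and Scanpy with GRCh38. Per the file headers, the untreated, OA and OA control matrices came from cellranger 6.0.2 and the others from 3.0.2. The members and the gene lists were chosen with earlier results of these data known. In the lists, 2 genes are not reported here and were left out of the counts and medians given.

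Counts were summed over kept cells per library, and CPM scales these sums to a common library total. Libraries, not cells, were the replicates. Changes were tested with edgeR 4.0.16 (glmQLFit and glmQLFTest, R 4.3.3), TMM, filterByExpr and Benjamini-Hochberg adjustment: 1 fit over the 14 OS libraries (19366 of 32732 genes) and 1 over the 5 ULA libraries (22261 of 58721). The scripts were tested on simulated data. DESeq2 1.42.0, other scalings, filters, cell sets and left-out libraries were alternatives.

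Cells were clustered per experiment with scanpy 1.11.5 (2000 variable genes, 30 components, 15 neighbours, leiden resolution 0.5). A cluster was called "-like" from at least 3 markers among its 50 leading genes, more than for any other class, and with no other class having at least as many, where there were any, among its top 10. Scrublet's automatic threshold marked 1731 of 12427 cells in the second ULA day 34 library and at most 26 in any other, so its calls were not used and doublets were kept. An alternative removed the highest scores at 0.8% per 1000 barcodes. Genes named from a list were up to 3 with the largest changes among those called (3 in each direction for OA). Intervals and limits (3 counts for a count of 0) cover counting error only.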

Additional observations from a re-analysis of the deposited data

Results flagged for a closer look

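The OA change differed from the change under another agent for 3 of the 5 genes, by a test of the difference itself. For TM6SF2 the OA change was 2.64 above the PA change and 3.34 above the TGFB1 change on the log2 scale. For GCKR it was 2.78 above the PA change and 4.47 above the TGFB1 change. For MBOAT7 it was 0.99 above the TGFB1 change. Each difference comes from edgeR's fit of the 14 shaker libraries, with 2 libraries a group, and 20.5% of all genes were called against PA and 31.8% against TGFB1. When 1 library was left out, GCKR could lose its call against PA (adjusted p = 0.13), TM6SF2 its call against TGFB1 (adjusted p = 0.068) and MBOAT7 its call against TGFB1 (adjusted p up to 0.081).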

How the results depend on the processing

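Over all alternatives, the 5 genes kept direction and side of the threshold in 451 values, lost a call in 19, gained one in 3 and turned in 16. With OA, MBOAT7 was 0.54 under the stricter cell filter, 0.27 without TMM, 0.61 with the replicate block and 0.48 outside the mesenchymal-like clusters, each no longer called, and 0.58 to 0.64 leaving out 1 library. PNPLA3 with OA was -0.93 without TMM and -0.64 with only the groups compared, both called, and in the comparison of OA with TGFB1 it was -0.94 with only the groups compared (called). There MBOAT7 was 0.86 without TMM, 0.78 to 1.12 leaving out 1 library, and TM6SF2 2.37 to 3.80. Against PA, GCKR was 2.29 to 3.11. ULA TM6SF2 was -2.60 with the block (adjusted p = 0.13) and -3.16 to -1.80 leaving out 1 library.

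Genes called in all, leaving out 1 library, were 1704 to 5554 for TGFB1, 0 to 20 for PA, 5171 to 6570 for OA, 0 to 164 for the OA control, 2112 to 3388 for OA against PA, 4242 to 6841 for OA against TGFB1 and 697 to 7166 for ULA. For PA the count of 9 became 17 without TMM, 162 without a low-count filter, 54 with DESeq2, 16 with only the groups compared and 4 with the replicate block. For the OA control the count of 111 became 255, 523, 702, 0 and 0 under the same settings, and 168 outside the mesenchymal-like clusters. For ULA the block left 0 of 3476.

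Uncalled changes turned sign as follows. For PA, HSD17B13 was 0.20 with doublets removed. For the OA control, PNPLA3 was 0.00070 with the block, and TM6SF2 was -0.23 under the stricter filter and -0.039 without TMM. Leaving out 1 library gave, for TGFB1, TM6SF2 at -0.75 to 0.58 and HNF4A at -0.24 to 0.17. For PA it gave HSD17B13 -0.76 to 0.26, MBOAT7 -0.12 to 0.37, AFP -0.38 to 0.20, APOB -0.0040 to 0.50 and HNF4A -0.026 to 0.39. For OA it gave HSD17B13 -0.61 to 0.93, and against PA -0.60 to 1.06. For the OA control it gave PNPLA3 -0.63 to 0.77, TM6SF2 -0.35 to 0.66, HSD17B13 -0.59 to 1.24 and HNF4A -1.47 to 0.91, and for ULA it gave GCKR -0.15 to 0.88. The cause was not tested.

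At leiden resolution 1.0 the highest cluster level was 48.1 CPM for TM6SF2 and 6.5 for GCKR in the OA experiment, 10.5 for TM6SF2 in the PA experiment and 137.5 for TM6SF2 in ULA, in 101 shallow cells on 19 UMIs. Libraries of the same replicate number deviated alike at most weakly. Their deviations from group means correlated at -0.22 (TGFB1), 0.089 (PA), 0.041 (OA) and -0.44 (OA control and untreated), and at -0.17 and -0.27 for ULA. In the shaker groups, of 2 libraries each, a negative value means that libraries of different number deviated alike. What such libraries share was not tested. Tests within hepatocyte-like cells were not run, for want of such cells. UMIs of 2 to 23 per library limit HSD17B13, and those of 5 to 138 limit GCKR.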

Other observations

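Pooled over libraries, MBOAT7 had its highest level in a keratin-rich cluster in the OA and PA experiments. Among clusters of at least 100 cells, it reached 75.3 CPM (71.2 to 79.6) in the OA experiment's cluster led by KRT6A and KRT5. In the PA experiment it reached 93.4 CPM (85.2 to 102.3) in the cluster led by S100A8, KRTDAP and KRT6A. Within the PA libraries alone that cluster (88.8 CPM, 78.9 to 99.6) was level with the CHGA and NEUROD1 cluster (90.2 CPM, 78.1 to 103.6). In the PA control the keratin-rich cluster was at 102.3 CPM (87.7 to 118.6). The PHGR1 and APOA4 cluster there was at 94.2 CPM (85.9 to 103.1), with an overlapping interval. The pooled level therefore gives no order among these clusters within either group. In these keratin-rich clusters PNPLA3 was at 1.68 and 2.01 CPM, TM6SF2 had 3 and 2 UMIs, and GCKR had 0 UMIs in both.

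At the finer clustering of the ULA experiment, 101 cells led by APOA4, CAPN8 and LPIN3 held 19 TM6SF2 UMIs, a level of 137.5 CPM (82.8 to 214.7). So high a level on 19 UMIs means that these cells held few UMIs in all. The hepatocyte-like ULA cluster was at 4.74 CPM, in much deeper cells. At the main clustering, the cluster of 759 shallow cells also held 19 TM6SF2 UMIs (9.83 CPM). Whether the 101 cells lie within it was not checked, so these need not be separate observations. The 101 cells also held 4 PNPLA3 UMIs and 1 UMI each of HSD17B13 and GCKR. At the finer clustering of the OA experiment, GCKR was highest at 6.5 CPM (5.01 to 8.30) in 751 cells led by MUC5AC and OLFM4.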
